A study of Homo sapiens with 8 samples.

Results

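The 49 genes described here encode the machinery that licenses origins and copies DNA, together with the enzymes that supply deoxynucleotides and the transcription factors that switch these genes on. They were taken by symbol from a list of replication genes, but the list was chosen with earlier results of these data known. All 49 were found among the 18417 genes tested. RNA of ovarian carcinoma cells was hybridised to 8 Affymetrix Human Gene 1.0 ST arrays, 2 for each of 4 groups. The groups were A2780CP20 without treatment, A2780 after 48 h of temsirolimus, A2780 after 24 h of temsirolimus, and A2780 without treatment. A2780 is a human ovarian carcinoma cell line and A2780CP20 is a derivative known for cisplatin resistance. How the derivative was made is not stated in the labels. Temsirolimus is a rapamycin ester that binds FKBP12 and inhibits the kinase complex mTORC1. Its stock was in DMSO, its dose is not given in the labels, and the labels of the untreated arrays do not say whether vehicle was added. All cells were grown in RPMI medium with fetal bovine serum. Whether the arrays of a group stand for separate cultures is not in the labels, so the spread that the p-values rest on may be technical.

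In G1 phase the origin recognition complex (ORC), CDC6 and CDT1 load the ring of MCM2 to MCM7 onto DNA, and geminin (GMNN) later binds CDT1 to prevent reloading. The kinase CDC7 with its activator DBF4, together with cyclin-dependent kinases, turns the loaded ring into an active helicase by recruiting CDC45 and the GINS complex with the help of MCM10. Most of these genes are transcribed at the G1 to S transition under E2F factors, so their summed level in a culture follows the share of cells in or near S phase as well as the level per cell. In bulk RNA, fewer cells in S phase and less RNA per cell cannot be told apart.

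The arrays labelled 24 h stood apart from the other 6. Across all genes they correlated with the other arrays at 0.950 to 0.952, while r between 48 h and untreated arrays was 0.994 to 0.996. Over the 49 replication genes alone, r of the 24 h arrays was 0.919 to 0.943 with A2780CP20 and 0.964 to 0.968 with the 48 h and untreated arrays. On these genes A2780CP20 stood off in a similar way. Its r was 0.954 to 0.974 with the untreated arrays and 0.941 to 0.970 with the 48 h arrays. KRT18, an epithelial keratin gene, had log2 intensities of 10.55 and 10.48 on the 24 h arrays, against 7.55 and 7.61 on the untreated arrays. EPCAM, an epithelial adhesion gene, had 7.67 and 7.80 on the 24 h arrays, against 5.45 and 5.68 on the untreated arrays. These were the 2 of the 11 ovarian carcinoma markers that rose at 24 h, while SOX17 fell (-0.37 ± 0.12) and the other 8 were not called, among them the keratin genes KRT8 (0.19 ± 0.10) and KRT7 (-0.09 ± 0.11) and the lineage factor PAX8 (-0.31 ± 0.13). The median of the 11 differences was -0.085. Whether the 24 h label fits the cells on those arrays was not tested, so every result that uses them is given under their label. PAX8 and WT1 lay between 5.77 and 7.06 on all arrays, below the per-array median of 7.28 to 7.33 over the genes tested, and MUC16 lay between 5.58 and 6.01. No detection call came with the values, so these levels cannot be read as absence. Of the markers of other cells, endothelial genes lay between 4.73 and 5.75, erythroid genes between 5.01 and 6.63 and leukocyte genes between 3.19 and 8.41, with CD68 at the top and the leukocyte genes PTPRC and LYZ between 3.19 and 4.54, under the lower quartile of each array (at least 5.03).

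Between A2780CP20 and untreated A2780, 4 replication genes rose and 3 fell, and 42 were not called. The genes that rose were E2F2, an E2F transcription factor gene (by 0.65 on the log2 scale), POLD1, the catalytic subunit of DNA polymerase delta (0.48), the licensing factor CDT1 (0.47) and CHAF1A, a subunit of the CAF-1 histone chaperone (0.44). Those that fell were the kinase gene CDC7 (-0.51), GINS4 (-0.51) and the primase subunit PRIM2 (-0.37). No member differed 2-fold or more in any comparison. Calls here and throughout are limma's, at an adjusted p under 0.05. The 14.3% of members called compares with 18.4% of all genes (6.37% higher and 12% lower), so the count is not above the background. The median difference of the 49 genes was -0.005, against 0.03 for all genes, and it was 0.063 with quantile normalization. The count of 7 was 1 with only the 2 groups compared. It fell without either untreated array and rose without A2780CP20 replicate 2. Without both arrays labelled 24 h, which share in the estimate of spread, it was 6. Fewer arrays were then fitted for every gene, and the share of all genes called in these settings is not given here. No call was kept under all settings, and all 7 were lost without untreated replicate 2.

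On the arrays labelled 24 h, 13 replication genes rose and 3 fell against untreated A2780, and 33 were not called. RRM2, the small subunit of ribonucleotide reductase, showed the largest difference, at 0.85 ± 0.11 on the log2 scale, which is 1.80-fold (± is the standard error of the fit, 2 arrays a group, adjusted p = 0.000458). The others that rose were DBF4, E2F2, RFC1, MCM10, RFC2, GMNN, ORC1, PRIM1, RRM1, CDC45, RFC4 and POLA2, by 0.35 to 0.61. POLD1, LIG1 and TK1 fell by 0.48, 0.42 and 0.34. Counted without regard to direction, the 32.7% of members called was near the 30.1% of all genes. Higher calls took 26.5% of the members against 14.9% of all genes, and lower calls 6.12% against 15.3%. The members' median difference was 0.195, against 0.01 for all genes. In 33 members both 24 h arrays lay above both untreated arrays, and in 6 both lay below. Over all genes these shares were 34.1% and 31.9%. The count of 16 fell when any 1 of the 4 arrays compared was left out. Fewer arrays were then fitted for every gene, and the share of all genes called in these settings is not given here. With quantile normalization the RFC4 call was lost. RRM2, MCM10, ORC1, E2F2 and POLD1 were called in all 16 alternatives, the calls of RRM1, POLA2, PRIM1, RFC4 and TK1 were lost without any single one of the 4 arrays compared, and the other 6 were lost without at least 1 of them.

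After 48 h of temsirolimus no replication gene was called by limma against untreated A2780, and of all genes 0.179% were (0.163% higher and 0.0163% lower). At an unadjusted p under 0.05 the count was 6 lower and 0 higher of 49, which is 12.2%, against 11.1% of all genes (6.65% lower and 4.45% higher). Of the 49, 35 had a negative difference and 14 a positive one, with a median of -0.085, against -0.03 for all genes. The lowest was RFC5 at -0.38 ± 0.10. On 25 genes both 48 h arrays lay below both untreated arrays, and on 8 both lay above, where the shares over all genes were 27.2% and 19.6%. No member was called in any alternative processing, that without both arrays labelled 24 h included.

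Between 48 h and 24 h, which is the test of the difference between the 2 drug times, 20 replication genes were lower at 48 h and POLD1 was higher. The 42.9% of members called compares with 31% of all genes, and the 40.8% called lower compares with 15.7%. The median difference was -0.27, against -0.055 for all genes. The lower genes were led by RRM2 (-0.77), MCM10 (-0.71), RFC4 (-0.70), RFC5 (-0.66) and RRM1 (-0.63). This comparison shares the 24 h arrays with that of 24 h against untreated A2780, so a high value on those arrays enters both. The count of 21 fell when any 1 of the 4 arrays compared was left out. Fewer arrays were then fitted for every gene, and the share of all genes called in these settings is not given here. With quantile normalization the calls of MCM3, DBF4, POLD1 and RPA1 were lost. RRM2, MCM10, RFC4, RFC5, RRM1, RFC2, POLA2 and CDC45 were called in all 16 alternatives, the calls of MCM3, CDC6, RPA1, FEN1 and E2F2 were lost without any single one of the 4 arrays compared, and the other 8 were lost without at least 1 of them.

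**Figure D1:**
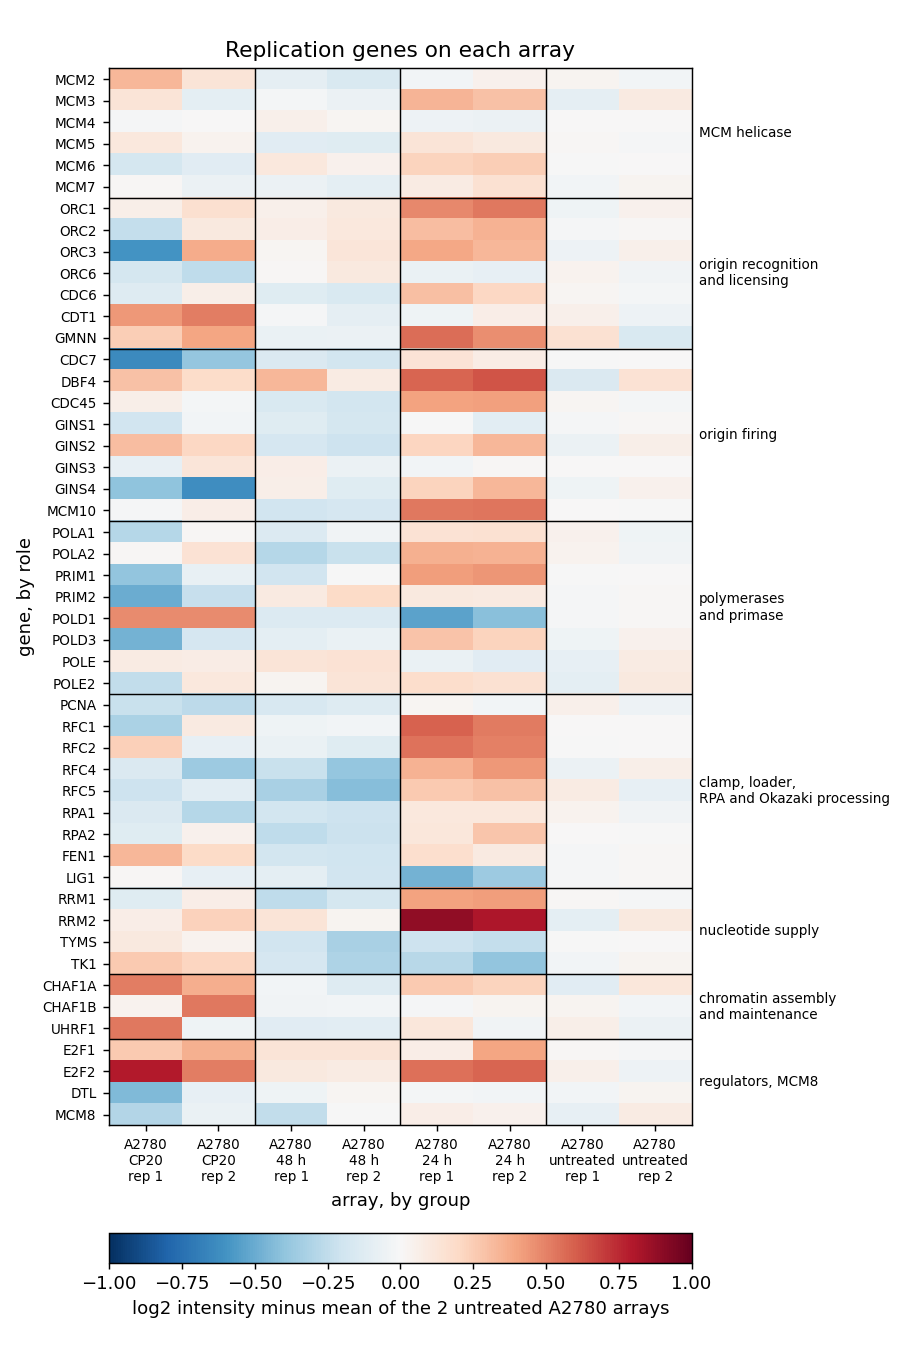
Each row is a replication gene, grouped by role, and each column an array. The colour gives the log2 intensity minus the mean of the 2 untreated A2780 arrays, on a scale that ends at -1 and 1. Many cells of the 24 h columns are red, with RRM2 the darkest at a mean of 0.85, while POLD1, LIG1 and TK1 are blue there.

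**Figure D2:**
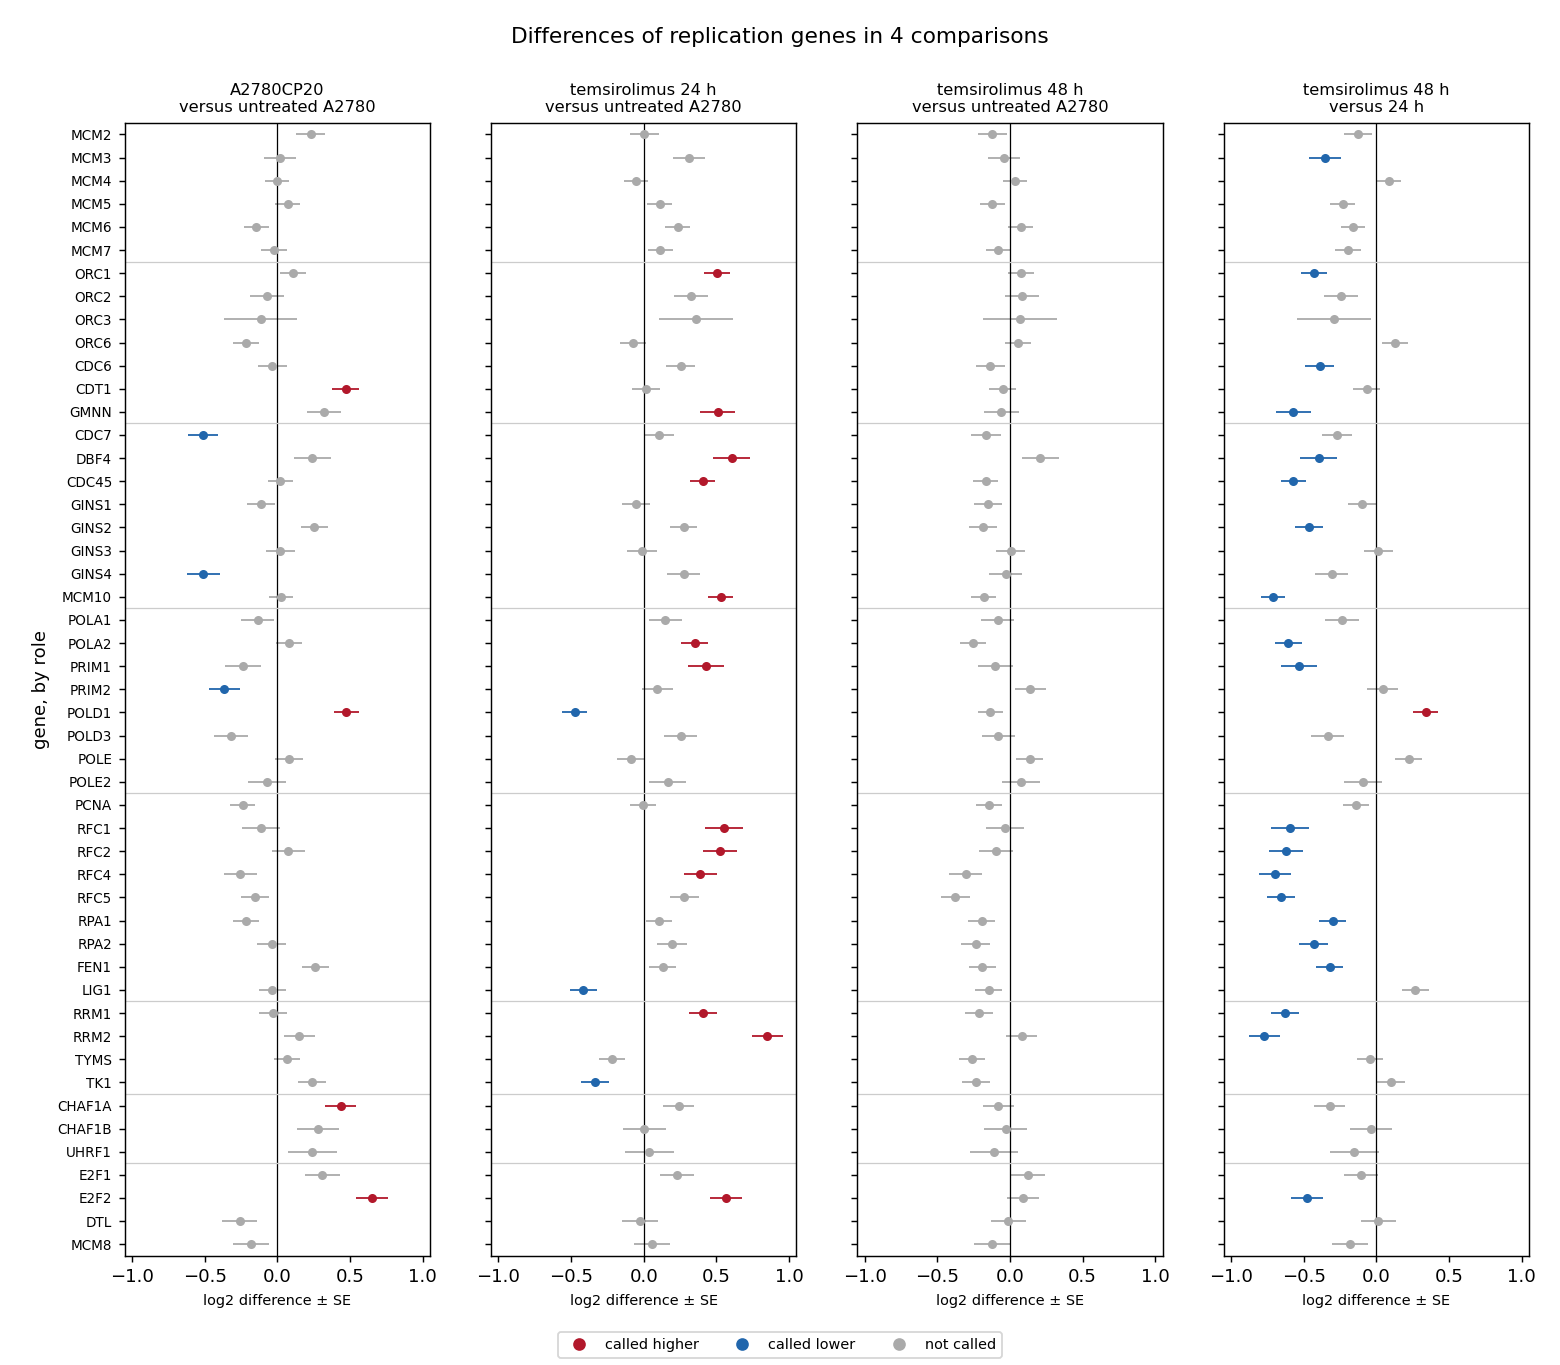
Log2 differences of the 49 replication genes, as group mean minus group mean with the standard error of the limma fit, in 4 comparisons (2 arrays a group). Coloured points passed an adjusted p of 0.05. They number 4 higher and 3 lower for A2780CP20, 13 and 3 at 24 h, none at 48 h, and 1 higher and 20 lower at 48 h versus 24 h.

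Promoter sequence was read for 44 of the 49 genes from RefSeq, assembly GRCh38.p14, as windows from 250 bases before to 49 bases after the annotated start, which is counted as 0. The windows were searched on both strands for the E2F-type words TTTCGCGC, TTTGGCGC, TTTCCCGC and TTTGCCGC, which can overlap each other, and for the word CCAAT, the core of the NF-Y site. No window was used for GINS4, MCM4, MCM5, POLD3 or RPA2. An E2F-type word was found in 24 of 44 members (54.5%), against 5.51% of the 14237 tested genes with a window. Counted per window, it was in 43.9% of member windows and 3.31% of all promoter windows. A CCAAT word was found in 28 of 44 members (63.6%), against 42.2% of tested genes and 34.6% of all promoter windows. The E2F-type word was found in 9 of the 26 members called in at least 1 comparison (34.6%) and in 15 of the 18 called in none (83.3%). It was present in 3 of the 13 genes that rose at 24 h (E2F2, GMNN and POLA2). It was present in 20 of the 28 members with a window that were not called there. The CCAAT word was in 15 of the 26 and 13 of the 18, and at 24 h in 8 of the 13 and 19 of the 28. Shares of all tested genes split by call are not given here. Only these 4 exact E2F-type words were searched, so a gene counted without one may hold another form of the site. The MCM10 window, for example, holds TTTGGCGG, which differs from a searched word in its last base and was not counted. These counts describe the letters in the windows and carry no test.

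The windows that follow are those of the 2 genes with the largest differences at 48 h versus 24 h (RRM2 and MCM10), E2F2 and POLD1, which were called in A2780CP20 and at 24 h against the same untreated arrays, and MCM6, the member with the most E2F-type words, which was called nowhere. They were chosen after the values were seen. Each is written 5′ to 3′ along the gene, and capitals mark the E2F-type and CCAAT words on either strand. RRM2 has 2 annotated starts, and the downstream of its 2 windows is shown (chr2:10122489-10122788, plus strand). It holds 3 CCAAT words, beginning at positions -123, -93 and -66, and no E2F-type word.
RRM2: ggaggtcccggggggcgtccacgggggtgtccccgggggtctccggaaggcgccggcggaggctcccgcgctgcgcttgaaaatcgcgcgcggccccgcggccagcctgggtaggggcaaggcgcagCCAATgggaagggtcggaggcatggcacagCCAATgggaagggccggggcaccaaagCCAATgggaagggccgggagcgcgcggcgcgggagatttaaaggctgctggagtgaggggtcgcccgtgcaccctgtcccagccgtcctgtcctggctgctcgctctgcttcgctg
MCM10 (chr10:13161308-13161607, plus strand) holds 2 CCAAT words, beginning at positions -118 and -105.
MCM10: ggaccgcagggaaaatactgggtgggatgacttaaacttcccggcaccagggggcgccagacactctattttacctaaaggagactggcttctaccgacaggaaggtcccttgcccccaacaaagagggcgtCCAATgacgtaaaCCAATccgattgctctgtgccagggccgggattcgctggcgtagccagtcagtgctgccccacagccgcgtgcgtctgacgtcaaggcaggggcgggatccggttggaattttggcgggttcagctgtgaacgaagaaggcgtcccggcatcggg
E2F2 (chr1:23531184-23531483, minus strand) holds 1 E2F-type word, from position -42 to -35.
E2F2: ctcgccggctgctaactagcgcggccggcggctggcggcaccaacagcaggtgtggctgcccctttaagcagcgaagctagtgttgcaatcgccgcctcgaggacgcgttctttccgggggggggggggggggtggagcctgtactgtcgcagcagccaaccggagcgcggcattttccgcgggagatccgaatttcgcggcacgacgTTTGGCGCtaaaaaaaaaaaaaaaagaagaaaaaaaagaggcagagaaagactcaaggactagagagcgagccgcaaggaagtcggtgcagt
POLD1 (chr19:50384073-50384372, plus strand, the upstream of 2 windows) holds neither word.
POLD1: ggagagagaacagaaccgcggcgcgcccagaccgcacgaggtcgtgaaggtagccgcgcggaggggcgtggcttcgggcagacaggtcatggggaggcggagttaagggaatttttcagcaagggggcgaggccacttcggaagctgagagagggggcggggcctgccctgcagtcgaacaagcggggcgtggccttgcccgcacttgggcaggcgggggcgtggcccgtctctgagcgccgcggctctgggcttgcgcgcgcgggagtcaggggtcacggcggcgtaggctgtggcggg
MCM6 (chr2:135876394-135876693, minus strand) holds 4 E2F-type words as 2 overlapping pairs, each pair reading TTTGGCGCGAAA, that begin at positions -152 and -90, with 2 CCAAT words on the other strand.
MCM6: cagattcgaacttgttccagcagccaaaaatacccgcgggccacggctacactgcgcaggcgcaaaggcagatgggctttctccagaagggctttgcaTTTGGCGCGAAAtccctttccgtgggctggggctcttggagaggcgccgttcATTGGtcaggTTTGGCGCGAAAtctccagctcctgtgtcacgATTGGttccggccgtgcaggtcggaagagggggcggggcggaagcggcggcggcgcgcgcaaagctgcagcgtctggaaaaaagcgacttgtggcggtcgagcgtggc

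**Figure D3:**
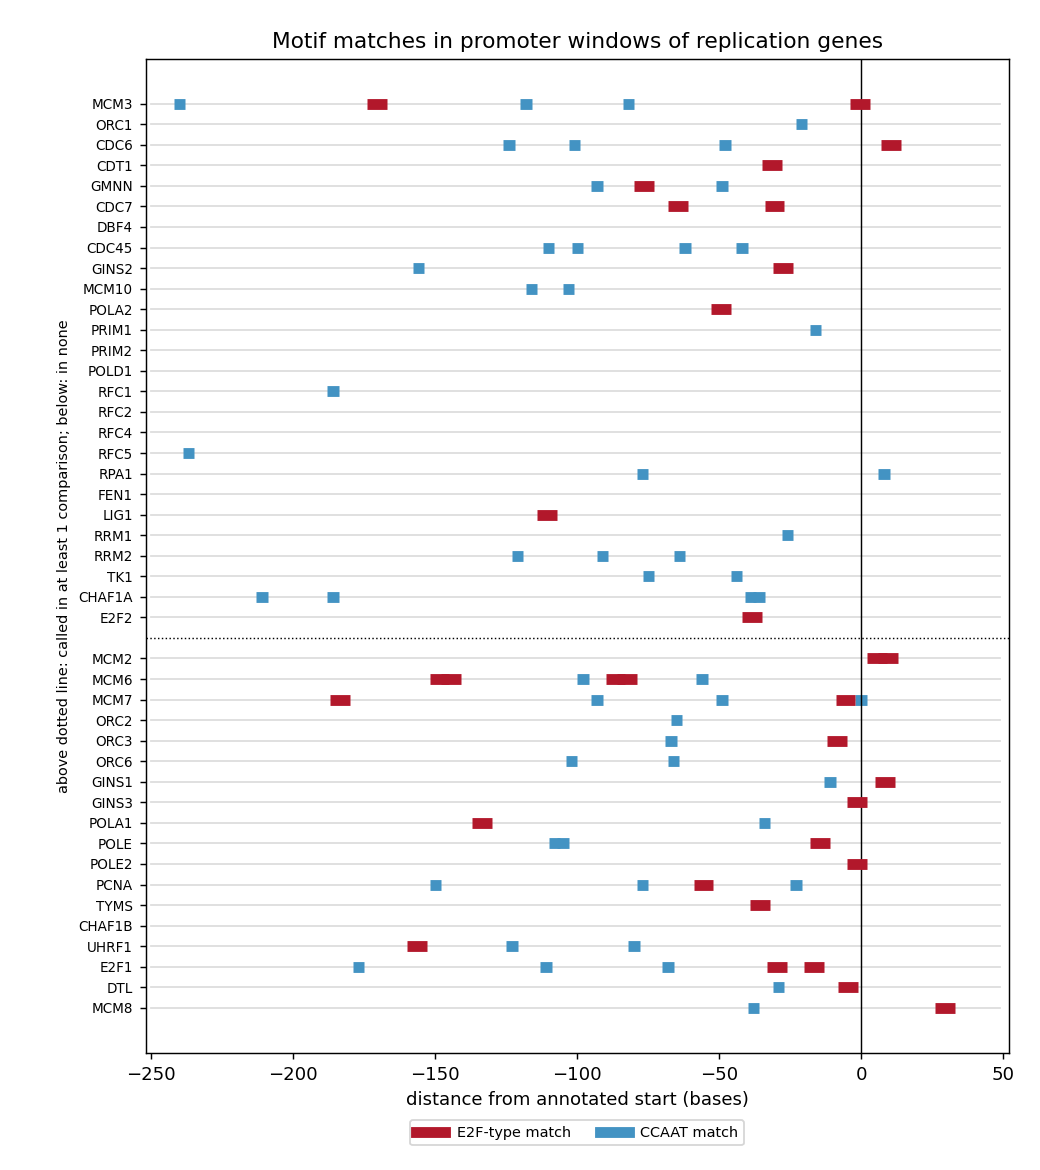
Positions of E2F-type words (red) and CCAAT words (blue) in the promoter window of each replication gene, by distance from the annotated start in bases. Where a gene has several windows the one with the most words is drawn. The 26 genes above the dotted line were called in at least 1 comparison. Of these 9 hold an E2F-type word, while 15 of the 18 below the line do. A CCAAT word is held by 15 of the 26 and 13 of the 18.

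Of the helicase genes MCM2 to MCM7, 5 were called in no comparison. The exception was MCM3, a subunit of the ring, which was lower at 48 h than at 24 h. Of these 6 genes 0% were called in A2780CP20 and at 24 h, against 18.4% and 30.1% of all genes. At 48 h versus 24 h 16.7% were called, against 31% of all genes. The list is short and these shares were not tested. MCM3 measured 10.92 and 10.69 in A2780CP20, 10.77 and 10.73 at 48 h, 11.13 and 11.08 at 24 h and 10.70 and 10.88 in untreated A2780. The 24 h arrays lay above the other 6, while A2780CP20, 48 h and untreated arrays overlapped. The difference was -0.36 ± 0.11 (adjusted p = 0.0387), and that between 24 h and untreated A2780 did not pass (0.32 ± 0.11, adjusted p = 0.0621). MCM6, whose window holds the paired E2F-type words, measured 10.98 and 11.04 in A2780CP20, 11.26 and 11.20 at 48 h, 11.38 and 11.40 at 24 h and 11.15 and 11.16 in untreated A2780. No groups overlapped, and the order was 24 h, 48 h, untreated and A2780CP20, but no difference passed, with 0.24 ± 0.09 at 24 h (adjusted p = 0.0712) and 0.08 ± 0.09 at 48 h against untreated cells. MCM2 measured 10.75 and 10.55 in A2780CP20, 10.33 and 10.27 at 48 h, 10.39 and 10.46 at 24 h and 10.45 and 10.39 in untreated A2780. MCM5 measured 10.86 and 10.79 in A2780CP20, 10.64 and 10.63 at 48 h, 10.88 and 10.85 at 24 h and 10.77 and 10.74 in untreated A2780. Both A2780CP20 arrays of these genes lay above both untreated arrays, without a call (adjusted p = 0.146 and 0.606). MCM7 measured 11.48 and 11.41 in A2780CP20, 11.41 and 11.37 at 48 h, 11.55 and 11.62 at 24 h and 11.44 and 11.50 in untreated A2780, with the 24 h arrays above the other 6. MCM4 measured 10.82 and 10.83 in A2780CP20, 10.88 and 10.85 at 48 h, 10.78 and 10.77 at 24 h and 10.83 and 10.83 in untreated A2780, so all 8 arrays lay between 10.77 and 10.88. The 95% interval of the MCM4 difference at 48 h against untreated A2780 ran from -0.15 to 0.22, and that at 24 h from -0.24 to 0.13.

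Among the genes that recognise and license origins, ORC1 and GMNN rose at 24 h, CDT1 rose in A2780CP20, and ORC1, CDC6 and GMNN were lower at 48 h than at 24 h. ORC1, the largest ORC subunit and the one that is cell-cycle regulated, measured 8.91 and 9.01 in A2780CP20, 8.90 and 8.95 at 48 h, 9.33 and 9.38 at 24 h and 8.81 and 8.89 in untreated A2780. The 24 h arrays stood above the other 6, which lay between 8.81 and 9.01. Its differences were 0.51 ± 0.09 at 24 h (adjusted p = 0.003) and -0.43 ± 0.09 at 48 h versus 24 h (adjusted p = 0.00667). GMNN, the inhibitor of CDT1, measured 9.52 and 9.67 in A2780CP20, 9.21 and 9.22 at 48 h, 9.83 and 9.74 at 24 h and 9.43 and 9.12 in untreated A2780. The 24 h arrays were again the highest, the untreated pair differed by 0.31, and the differences were 0.51 ± 0.12 at 24 h and -0.57 ± 0.12 at 48 h versus 24 h. The call at 24 h was lost without untreated replicate 2, and both calls were lost without 24 h replicate 1.

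CDT1 itself followed another pattern. It measured 9.27 and 9.35 in A2780CP20, 8.83 and 8.75 at 48 h, 8.80 and 8.91 at 24 h and 8.89 and 8.79 in untreated A2780, so both A2780CP20 arrays lay above the other 6, which overlapped. Its difference was 0.47 ± 0.09 in A2780CP20 (adjusted p = 0.0121) and 0.02 ± 0.09 at 24 h. CDC6, the loader that works beside CDT1, measured 10.98 and 11.17 in A2780CP20, 10.99 and 10.96 at 48 h, 11.41 and 11.32 at 24 h and 11.13 and 11.09 in untreated A2780. The 24 h arrays were highest and the 48 h arrays were below both untreated arrays, with a call only between the drug times (-0.39 ± 0.10, adjusted p = 0.0159). ORC2, ORC3 and ORC6, subunits of the same complex as ORC1, were called in no comparison. ORC2 stood at 0.33 ± 0.12 at 24 h (adjusted p = 0.0673) and ORC6 at -0.22 ± 0.09 in A2780CP20. ORC3 measured 9.95 and 10.92 in A2780CP20, the widest gap between arrays of a group among all members (0.97), and its standard error of 0.25 was the highest of the list.

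Of the genes that fire origins, CDC7 and GINS4 fell in A2780CP20, and DBF4, CDC45 and MCM10 rose at 24 h. CDC7, the catalytic subunit, measured 9.05 and 9.30 in A2780CP20, 9.54 and 9.50 at 48 h, 9.82 and 9.76 at 24 h and 9.68 and 9.69 in untreated A2780, and no pair of groups overlapped. It fell by 0.51 on the log2 scale in A2780CP20 (adjusted p = 0.013) and stood at 0.11 ± 0.10 at 24 h. DBF4, the activator, measured 5.99 and 5.88 in A2780CP20, 6.03 and 5.78 at 48 h, 6.28 and 6.32 at 24 h and 5.55 and 5.84 in untreated A2780. The 24 h arrays lay above the other 6, with a difference of 0.61 ± 0.13 (adjusted p = 0.00708). All 8 values lay below the per-array median of 7.28 to 7.33 over the genes tested, and no detection call shows how far they lie above background. DBF4 has 3 pseudogenes in the RefSeq gene table, so its probes may read them too.

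MCM10, which joins the helicase to polymerase alpha, measured 10.00 and 10.08 in A2780CP20, 9.82 and 9.85 at 48 h, 10.54 and 10.55 at 24 h and 10.02 and 10.01 in untreated A2780. Its 24 h arrays lay above and its 48 h arrays below all others, giving 0.53 ± 0.09 at 24 h and the smallest adjusted p of any member at 48 h versus 24 h (-0.71 ± 0.09, adjusted p = 0.000316). CDC45, the helicase partner, measured 9.56 and 9.48 in A2780CP20, 9.35 and 9.32 at 48 h, 9.90 and 9.91 at 24 h and 9.52 and 9.48 in untreated A2780, and like MCM10 was called at 24 h (0.41 ± 0.09) and between the drug times (-0.57 ± 0.09). GINS4, which codes for a subunit of the GINS complex, measured 8.88 and 8.66 in A2780CP20, 9.34 and 9.16 at 48 h, 9.50 and 9.61 at 24 h and 9.24 and 9.32 in untreated A2780, with both A2780CP20 arrays below the other 6 (-0.51 ± 0.11, adjusted p = 0.0172). GINS2 was called only at 48 h versus 24 h (-0.46 ± 0.10), whereas GINS1 and GINS3 were called nowhere. GINS1 stood at -0.11 ± 0.10 in A2780CP20 and -0.15 ± 0.10 at 48 h. GINS3 stayed between 9.01 and 9.21 on all 8 arrays.

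**Figure D4:**
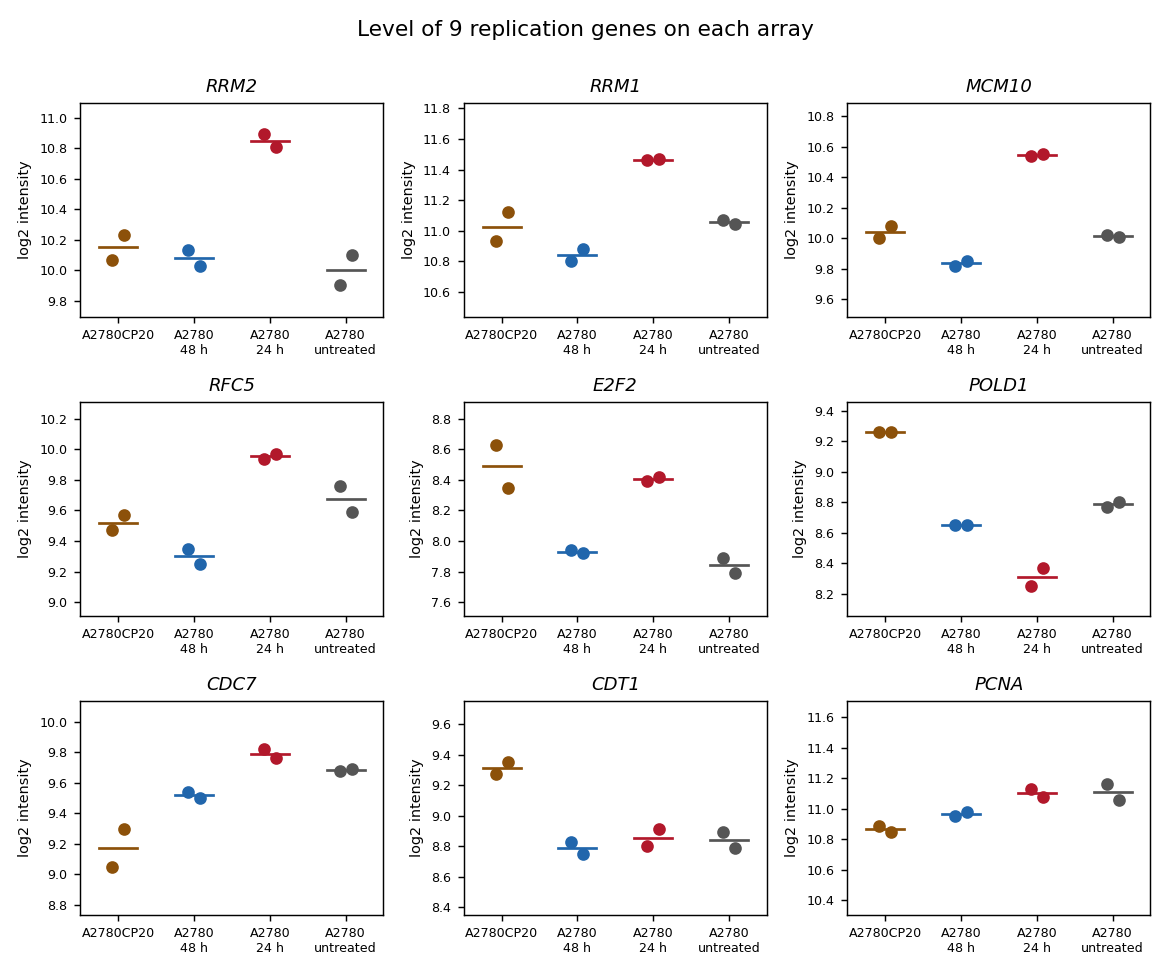
Log2 intensity of 9 replication genes on each array (points) with group means (bars), each panel spanning 1.4 log2 units. RRM2, RRM1, MCM10 and RFC5 are highest at 24 h, E2F2 is high both in A2780CP20 and at 24 h, POLD1 is highest in A2780CP20 and lowest at 24 h, CDC7 is lowest and CDT1 highest in A2780CP20, and PCNA was not called.

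Among polymerase genes, POLD1 moved in opposite directions in the subline and at 24 h. It measured 9.26 and 9.26 in A2780CP20, 8.65 and 8.65 at 48 h, 8.25 and 8.37 at 24 h and 8.77 and 8.80 in untreated A2780, and the 4 groups did not overlap. It rose in A2780CP20 by 0.48 ± 0.09 (adjusted p = 0.00895), fell on the 24 h arrays (-0.48 ± 0.09, adjusted p = 0.00365) and was the only member called higher at 48 h than at 24 h (0.34 ± 0.09). POLD3, an accessory subunit of the same enzyme, was not called and had the opposite signs, at -0.32 ± 0.12 in A2780CP20 and 0.26 ± 0.12 at 24 h. The initiating enzyme, polymerase alpha with primase, had 2 subunit genes that rose at 24 h. POLA2, its regulatory subunit, measured 9.62 and 9.75 in A2780CP20, 9.32 and 9.38 at 48 h, 9.96 and 9.95 at 24 h and 9.64 and 9.57 in untreated A2780, highest at 24 h and lowest at 48 h (0.35 ± 0.09 at 24 h and -0.61 ± 0.09 between the drug times). PRIM1, which makes the RNA primer, measured 10.16 and 10.48 in A2780CP20, 10.36 and 10.55 at 48 h, 10.97 and 11.00 at 24 h and 10.55 and 10.56 in untreated A2780, with differences of 0.43 ± 0.12 and -0.53 ± 0.12 in the same comparisons.

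PRIM2, the partner of PRIM1, was called only in A2780CP20. It measured 8.21 and 8.48 in A2780CP20, 8.80 and 8.90 at 48 h, 8.81 and 8.80 at 24 h and 8.70 and 8.72 in untreated A2780, and its difference of -0.37 ± 0.11 passed narrowly (adjusted p = 0.0494), in 5 of 17 alternative settings. A pseudogene, PRIM2BP, is listed in the RefSeq gene table, so what its probes read is uncertain. The same holds for ORC1, FEN1 and RFC5 with 1 listed pseudogene each, TYMS with 2, and RPA2 with 3. POLA1, POLE and POLE2 were called nowhere, and POLA1 and POLE2 stood at 0.15 ± 0.11 and 0.17 ± 0.13 at 24 h. POLE, the leading-strand polymerase gene, measured 9.91 and 9.90 in A2780CP20, 9.95 and 9.97 at 48 h, 9.76 and 9.71 at 24 h and 9.74 and 9.91 in untreated A2780, with the 48 h arrays the highest and the other groups overlapping the untreated arrays.

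The clamp loader RFC places the ring-shaped clamp PCNA on DNA. All 4 loader genes on the list were called lower at 48 h than at 24 h, as were 15.7% of all genes. PCNA was called in no comparison. PCNA measured 10.89 and 10.85 in A2780CP20, 10.95 and 10.98 at 48 h, 11.13 and 11.08 at 24 h and 11.16 and 11.06 in untreated A2780, with differences of -0.24 ± 0.09 in A2780CP20 (adjusted p = 0.0945), -0.01 ± 0.09 at 24 h and -0.15 ± 0.09 at 48 h. The 95% interval of the 24 h difference ran from -0.21 to 0.20, and 4 PCNA pseudogenes make its probes uncertain. RFC1, the large subunit of the loader, measured 9.40 and 9.81 in A2780CP20, 9.68 and 9.69 at 48 h, 10.31 and 10.24 at 24 h and 9.72 and 9.72 in untreated A2780. RFC2 measured 10.51 and 10.19 in A2780CP20, 10.21 and 10.15 at 48 h, 10.82 and 10.78 at 24 h and 10.27 and 10.28 in untreated A2780. In both genes the 24 h arrays lay above the other 6, and the differences from untreated A2780 were 0.56 ± 0.13 and 0.53 ± 0.11. RFC4 measured 10.08 and 9.86 in A2780CP20, 10.00 and 9.84 at 48 h, 10.57 and 10.66 at 24 h and 10.17 and 10.28 in untreated A2780. RFC5 measured 9.47 and 9.57 in A2780CP20, 9.35 and 9.25 at 48 h, 9.94 and 9.97 at 24 h and 9.76 and 9.59 in untreated A2780. Both were highest at 24 h and lowest at 48 h, although 48 h replicate 1 of RFC4 lay above A2780CP20 replicate 2. All 4 RFC genes were lower at 48 h than at 24 h, by 0.59 (RFC1), 0.62 (RFC2), 0.70 (RFC4) and 0.66 (RFC5) on the log2 scale.

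The list holds 9 clamp, loader, RPA and Okazaki genes. In all 9, both 48 h arrays lay below both untreated arrays, and the median difference was -0.19, but none was called and 3 had an unadjusted p under 0.05. Over all genes, 27.2% had both 48 h arrays below both untreated arrays, and 6.65% were lower at an unadjusted p under 0.05. The smallest adjusted p of any member at 48 h was that of RFC5, at 0.238. The single-strand binding genes RPA1 and RPA2 and the flap nuclease gene FEN1 were lower at 48 h than at 24 h, by 0.30, 0.43 and 0.32. LIG1, the ligase that seals Okazaki fragments, fell at 24 h. It measured 9.07 and 8.98 in A2780CP20, 8.96 and 8.87 at 48 h, 8.59 and 8.70 at 24 h and 9.05 and 9.07 in untreated A2780, with the 24 h arrays below the other 6 (-0.42 ± 0.09, adjusted p = 0.00918).

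Of the nucleotide supply genes, both ribonucleotide reductase genes rose at 24 h, TK1 fell and TYMS was not called. RRM2, whose window holds 3 CCAAT words, measured 10.07 and 10.23 in A2780CP20, 10.13 and 10.03 at 48 h, 10.89 and 10.81 at 24 h and 9.90 and 10.10 in untreated A2780. The 24 h arrays exceeded the other 6, which overlapped, and the interval of the 24 h difference ran from 0.60 to 1.10. At 48 h the difference from untreated A2780 was 0.08 ± 0.11, with an interval from -0.17 to 0.33, and it was -0.77 ± 0.11 from the 24 h arrays (adjusted p = 0.00079). RRM2 has 3 pseudogenes in the RefSeq table. RRM1, the large subunit, measured 10.93 and 11.12 in A2780CP20, 10.80 and 10.88 at 48 h, 11.46 and 11.47 at 24 h and 11.07 and 11.04 in untreated A2780. It rose at 24 h by 0.41 ± 0.10 (adjusted p = 0.0123) and its 48 h arrays were the lowest (-0.22 ± 0.10 against untreated A2780, adjusted p = 0.465).

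TK1, which salvages thymidine, measured 10.87 and 10.82 in A2780CP20, 10.44 and 10.30 at 48 h, 10.33 and 10.21 at 24 h and 10.58 and 10.63 in untreated A2780. Its A2780CP20 arrays lay above and both drug groups below the untreated arrays, with a call at 24 h alone (-0.34 ± 0.10, adjusted p = 0.0284). TYMS, which makes thymidylate and is the target of 5-fluorouracil, measured 11.66 and 11.60 in A2780CP20, 11.37 and 11.24 at 48 h, 11.36 and 11.33 at 24 h and 11.56 and 11.57 in untreated A2780. All 4 drug-treated arrays lay below the other 4, but neither difference passed (-0.22 ± 0.09 at 24 h, adjusted p = 0.105, and -0.26 ± 0.09 at 48 h, adjusted p = 0.355).

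CAF-1 deposits histones behind the fork, and UHRF1 carries maintenance methylation to new DNA. CHAF1A measured 10.64 and 10.49 in A2780CP20, 10.10 and 10.00 at 48 h, 10.39 and 10.35 at 24 h and 10.02 and 10.24 in untreated A2780. It was highest in A2780CP20 (0.44 ± 0.11, adjusted p = 0.0267), and this call was lost without A2780CP20 replicate 1 and without either untreated array. CHAF1B and UHRF1 were called nowhere, and their A2780CP20 arrays differed by 0.49 and 0.57. Their differences in A2780CP20 were 0.28 ± 0.15 and 0.24 ± 0.17. The regulators E2F1 and E2F2 both activate S-phase genes. E2F2 measured 8.63 and 8.35 in A2780CP20, 7.94 and 7.92 at 48 h, 8.39 and 8.42 at 24 h and 7.89 and 7.79 in untreated A2780, with the A2780CP20 and 24 h arrays above all 48 h and untreated arrays. It rose in A2780CP20 (0.65 ± 0.11, adjusted p = 0.00649) and at 24 h (0.57 ± 0.11, adjusted p = 0.00474), and the first of these calls was lost without untreated replicate 2. Its difference at 48 h versus 24 h was -0.48 ± 0.11 (adjusted p = 0.011), and that call was lost without any one of the 4 arrays compared. E2F1 measured 8.50 and 8.59 in A2780CP20, 8.36 and 8.36 at 48 h, 8.30 and 8.63 at 24 h and 8.25 and 8.22 in untreated A2780. Both arrays of each other group lay above the untreated pair, without a call (adjusted p = 0.104 for A2780CP20, 0.189 at 24 h and 0.747 at 48 h). DTL, which targets CDT1 for destruction, and MCM8, a helicase of recombination, were called nowhere. DTL stood at -0.26 ± 0.12 and MCM8 at -0.18 ± 0.12 in A2780CP20, and at 24 h they stood at -0.03 ± 0.12 and 0.06 ± 0.12.

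A list of 46 other measured replication genes, none of them a member, was counted in the same way. At 24 h 10 rose and 2 fell (21.7% and 4.35%), against 14.9% and 15.3% of all genes, and the 26.1% called in all was under the 30.1% of all genes. At 48 h versus 24 h 15 were lower and 3 higher (32.6% and 6.52%), against 15.7% and 15.2% of all genes. The largest difference was in SAMHD1, a phosphohydrolase that degrades deoxynucleotides, which measured 7.95 and 8.09 in A2780CP20, 8.15 and 8.20 at 48 h, 10.21 and 10.20 at 24 h and 8.11 and 8.21 in untreated A2780. Only the 24 h arrays stood out, by 2.05 ± 0.09 against untreated A2780 (adjusted p = 8.47e-07). POLE3, a histone-fold subunit of polymerase epsilon, rose there by 0.92 ± 0.10, the cyclin gene CCNE2 by 0.77 ± 0.13 and the repressor gene E2F8 by 0.75 ± 0.18, while MCM9 (-0.53 ± 0.09) and POLD4 (-0.42 ± 0.12) fell. At 48 h versus 24 h SAMHD1 was at -2.03 ± 0.09, E2F8 at -1.12 ± 0.18, POLE3 at -0.87 ± 0.10 and DSCC1 at -0.79 ± 0.10, and POLD4 (0.79 ± 0.12), CCNE1 (0.45 ± 0.09) and MCM9 (0.36 ± 0.09) were higher. In A2780CP20, 7 of the 46 fell and 2 rose (15.2% and 4.35%), near the 12% and 6.37% of all genes. The histone chaperone gene ASF1A (-0.84 ± 0.13), MTBP (-0.78 ± 0.12), ORC4 (-0.60 ± 0.10) and MCM9 (-0.46 ± 0.09) fell most, and SLBP (0.46 ± 0.10) and CDC25A (0.36 ± 0.08) rose. None was called at 48 h by limma, where 1 was higher and 3 lower at an unadjusted p under 0.05 (8.70%). The share of all genes at that threshold was 11.1% (4.45% higher and 6.65% lower).

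Mitosis genes mark cycling cells. Of 29 measured, 13 rose and 4 fell at 24 h, 18 were lower and 1 higher at 48 h versus 24 h, and 7 rose and 4 fell in A2780CP20. The higher and lower shares were 44.8% and 13.8% at 24 h, against 14.9% and 15.3% of all genes. They were 3.45% and 62.1% at 48 h versus 24 h, against 15.2% and 15.7% of all genes. In A2780CP20 they were 24.1% and 13.8%, against 6.37% and 12% of all genes. The mean log2 level of the 29 genes was 10.07 and 10.28 in A2780CP20, 9.89 and 9.90 at 48 h, 10.31 and 10.34 at 24 h and 10.06 and 10.10 in untreated A2780. CDC20, an activator of the anaphase-promoting complex, measured 11.57 and 11.50 in A2780CP20, 10.69 and 10.60 at 48 h, 11.52 and 11.51 at 24 h and 10.69 and 10.86 in untreated A2780, high in A2780CP20 and at 24 h alike. The largest rise at 24 h was that of KIF2C (0.825 ± 0.10). The 4 that fell at 24 h were CENPF, a kinetochore gene (-1.08 ± 0.10), CDC25C (-0.435 ± 0.10), BUB1B (-0.325 ± 0.10) and CDK1 (-0.32 ± 0.09). CENPF was at 0.80 ± 0.10 at 48 h versus 24 h. The 4 that fell in A2780CP20 were CDC25C (-0.51 ± 0.10), CDK1 (-0.48 ± 0.09), TTK (-0.46 ± 0.14) and CENPF (-0.37 ± 0.10). At 48 h against untreated A2780 none of the 29 was called by limma, with 10 lower and 0 higher at an unadjusted p under 0.05 (34.5%). The share of all genes at that threshold was 11.1% (6.65% lower and 4.45% higher). The part of cycling cells in the differences of the replication genes was not tested.

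**Figure D5:**
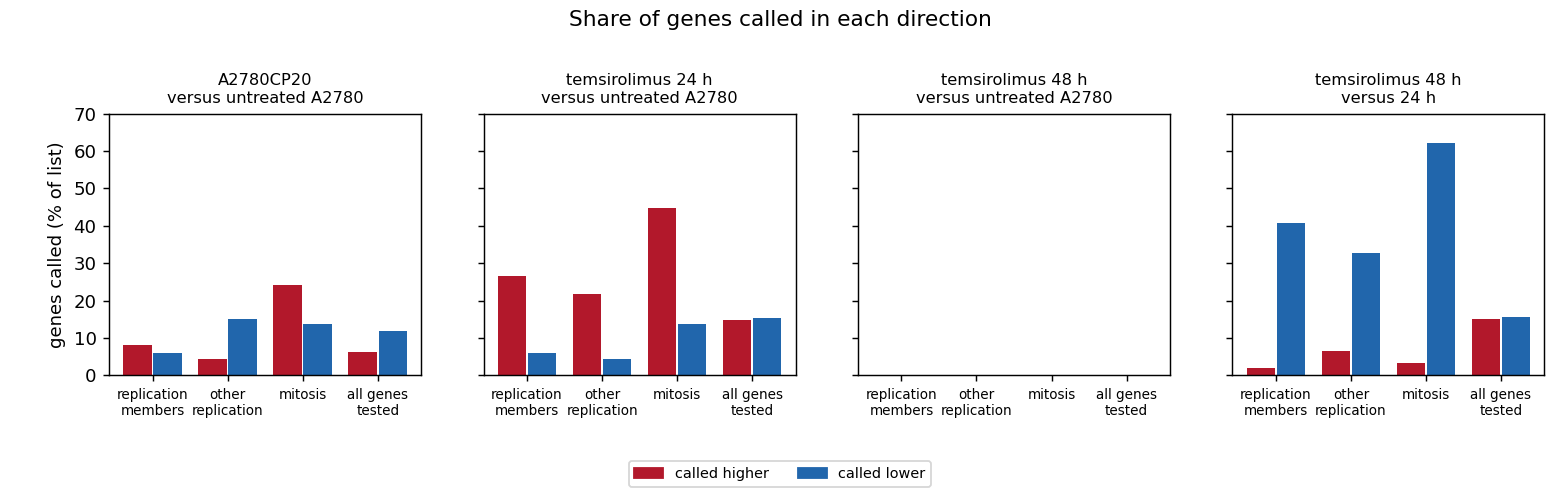
Share of genes called higher (red) and lower (blue) in each comparison, for the 49 replication genes, 46 other replication genes, 29 mitosis genes and all 18417 genes tested. At 24 h the replication genes had 13 higher and 3 lower calls, at 48 h versus 24 h 1 and 20, and at 48 h none of the 3 lists has a bar and all genes reach 0.179% for both directions together.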

How the data were processed

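RNA from 8 samples was hybridised to Affymetrix Human Gene 1.0 ST arrays, and the authors deposited 1 value per probe set and array. Per the submitters' processing notes Partek was used, with no version or role given. For the background correction, normalization and probe set summary, the method is not given in the sources used. The deposited values were read as log2 intensity from their range (1.8 to 14.99, with array medians of 6.66 to 6.72), so a difference of group means is a log2 fold change if that reading holds. Sequencing depth has no counterpart here, and the precision is limited by 2 arrays a group.

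Of 33297 probe sets, 19460 carried 1 gene symbol in the platform annotation, 1754 several and 12083 none, and only those with 1 symbol were used. For 769 genes with several probe sets, the one with the highest mean was kept. The 18417 genes were fitted with limma 3.58.1 in R 4.3.3 as 4 group means over all 8 arrays (lmFit and eBayes), and Benjamini-Hochberg adjustment ran over all genes in each comparison. A call is an adjusted p under 0.05, and intervals are 95%. The fit was tested on simulated data. Over the 4 comparisons it recovered 28.4% to 37.3% of changes of 0.5 on the log2 scale. For changes of 1 it recovered 68.7% to 83.6%, and for changes of 2 it recovered 95.5% to 100%. Changes of the size seen in most members would thus often be missed. The labels gave no fit design, so this one was chosen here.

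The 49 members and the other lists were chosen with earlier results of these data known. Every array value is given for MCM2 to MCM7, CDC6, CDT1, E2F1, PCNA, RRM1, RRM2 and TYMS, and for up to 8 called members with the largest change in each direction and comparison. For other lists up to 4 called genes in each direction were named. CDC45, PRIM1, POLE, SAMHD1, CDC20, KRT18, EPCAM, both probe sets of UHRF1 and, in part, ORC3 were given by array after their values were seen. The differences of SOX17, KRT8, KRT7 and PAX8 were also added after their values were seen. Alternatives were quantile normalization, median centring, a filter on the dimmest 25% of genes, the mean of probe sets, other priors, fewer arrays in the fit, a replicate block, and leaving out each array.

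Same-numbered arrays of different groups deviated from their group means with correlations of 0.002 to 0.181, and only 2 numbers exist, so the number was not treated as pairing.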

Additional observations from a re-analysis of the deposited data

Results flagged for a closer look

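The difference between the 2 drug times was tested directly for every replication gene, and 21 of the 49 passed (42.9%), against 31% of all genes. Of these, 20 were lower at 48 h than at 24 h (40.8%), against 15.7% of all genes. Among origin genes the log2 differences were -0.43 for ORC1, -0.39 for CDC6, -0.57 for GMNN, -0.395 for DBF4, -0.57 for CDC45, -0.46 for GINS2 and -0.71 for MCM10. The calls of RPA1, DBF4 and MCM3 passed in the fewest alternatives, at 9, 10 and 11 of 16. All of these, and POLD1 (12 of 16), were lost with quantile normalization. The DBF4 call was also lost with the replicate block, with a trend in the prior and without 3 of the 4 arrays compared. That of RPA1 was lost without any 1 of the 24 h, 48 h or untreated arrays. The helicase gene MCM3 was at -0.355. Polymerase alpha and primase genes were at -0.605 (POLA2) and -0.53 (PRIM1). Clamp loader genes were at -0.59 (RFC1), -0.62 (RFC2), -0.695 (RFC4) and -0.655 (RFC5). RPA1 was at -0.30, RPA2 at -0.43 and FEN1 at -0.32. The reductase genes were at -0.625 (RRM1) and -0.77 (RRM2), and the regulator E2F2 was at -0.475. POLD1 was higher at 48 h than at 24 h, by 0.34. All of these rest on the arrays labelled 24 h, which stood apart from every other array across all genes, and their part in the differences was not tested.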

How the results depend on the processing

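No alternative reversed the direction of a named gene's called difference. Of 1980 recomputed values of named genes, 1844 kept their side of the threshold, 84 lost the call and 52 gained it. The count of members called in A2780CP20 was 7, it was 1 with only the 2 groups compared, and leaving out 1 array gave 0 to 15. At 24 h the count was 16 and leaving out 1 array gave 7 to 24. At 48 h it was 0 throughout. At 48 h versus 24 h it was 21 and leaving out 1 array gave 11 to 30. Where an array was left out, the lone array of that group was assumed to vary like the other groups, and fewer arrays were fitted. With the replicate block the counts were 7, 16, 0 and 20 in the same order, so it moved none by over 1.5 times. The only call it removed was that of DBF4, temsirolimus 48 h versus 24 h (adjusted p = 0.0569, against 0.0333 to 0.272 over its alternatives). Median differences stayed within -0.015 to 0.063 for A2780CP20, 0.158 to 0.245 at 24 h, -0.11 to -0.05 at 48 h and -0.29 to -0.24 at 48 h versus 24 h. Differences between 24 h and untreated or 48 h arrays could not be recomputed without the arrays labelled 24 h. With 2 arrays a group, members' standard errors were 0.08 to 0.25, and differences of several times the standard error could be missed. No detection call shows how far the signal lies above background.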

Other observations

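UHRF1 was the only member with a second probe set. The one used measured 10.99 and 10.42 in A2780CP20, 10.35 and 10.36 at 48 h, 10.58 and 10.43 at 24 h and 10.52 and 10.41 in untreated A2780. The other measured 6.77 and 6.68 in A2780CP20, 6.03 and 6.34 at 48 h, 6.32 and 6.38 at 24 h and 6.26 and 6.42 in untreated A2780. In the second probe set both A2780CP20 arrays exceeded both untreated arrays, and in the one used A2780CP20 replicate 2 lay within the untreated range.

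The arrays of A2780CP20 differed more between themselves on these genes than those of the other groups. The median gap between the arrays of a pair was 0.16 in A2780CP20, 0.05 at 48 h, 0.05 at 24 h and 0.06 in untreated A2780. The widest gap was 0.97 (ORC3) in A2780CP20, 0.25 at 48 h, 0.33 (E2F1) at 24 h and 0.31 (GMNN) in untreated A2780. The fit took the spread of a gene over all groups. The standard errors may thus be too small for A2780CP20 and too large for the drug comparisons.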
